A study of Drosophila melanogaster with 12 samples.

Results

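Genes for proteasome subunits and for chaperones were followed in heads of drug-treated and untreated Drosophila males. Members were taken by current gene symbol: names starting with Prosalpha, Prosbeta, Rpn or Rpt and a digit for the proteasome, and with Hsp, Hsc, CCT, DnaJ or Cnx for chaperones. The rule found 49 genes of 6692 genes with a current symbol on the array, 30 of the proteasome and 19 of chaperones. They lie on 63 of the 13824 probes, 34 for the proteasome and 29 for chaperones. The symbols fit what is known of the genes, with 1 reservation: 9 of the 30 proteasome genes (Prosalpha4T1, Prosalpha4T2, Prosbeta2R1, Prosbeta2R2, Prosbeta4R2, Prosbeta5R1, Rpn13R, Rpt3R and Rpt4R) carry a T or R in the name and are paralogs of a subunit, best known from the testis.

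The proteasome breaks down proteins tagged with ubiquitin. Its 20S core is a barrel of alpha rings, which gate the entry, around beta rings, which hold the cutting sites, and its 19S cap has a base of Rpt ATPases, which unfold the substrate, and a lid of Rpn subunits, where the ubiquitin chain is removed. Chaperones help proteins fold: the CCT ring folds actin and tubulin, Hsp70 proteins and their J-domain partners bind unfolded stretches, small heat shock proteins hold damaged proteins in solution, and calnexins retain unfinished glycoproteins in the endoplasmic reticulum.

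RNA from heads of unmated Oregon-R wild-type males was set on 12 two-channel arrays of spotted cDNA, 4 for each of 3 treatments. Males aged 3 to 4 days, 30 to a vial, fed for 7 days on a medium containing 8 mg/ml of pentylenetetrazole (PTZ), a convulsant that blocks GABA receptors. In the group PTZ-ETH_10 they then had 3 days on food with 3.48 mg/ml of ethosuximide (ETH), an antiepileptic drug that acts on calcium channels, and were harvested on day 10. In PTZ-ETH-NF_14 the same drugs were followed by 4 days on normal food, with harvest on day 14, and in PTZ-NF-NF_14 the PTZ was followed by 7 days on normal food, also with harvest on day 14. All 3 treated groups thus had PTZ, and none had ETH alone. The second channel was in every case RNA of untreated males, reared in parallel on normal food for as long. Each array set a pool of treated heads against a pool of untreated heads, and the submitters describe the 4 arrays of a group as biological replicates. Whole heads hold neurons, glia, eyes, fat body, muscle and cuticle, and in such pools fewer cells of a type cannot be told apart from less RNA per cell.

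All values below are log2 ratios of treated over untreated flies, so 1 is a doubling in treated flies, after the median over an array's probes had been subtracted. In replicates 1 and 2 of each group the treated RNA carried Cy5, and in replicates 3 and 4, the dye swaps, it carried Cy3. No source used here says which channel is the numerator on the swaps. Ratios were read as Cy5 over Cy3 and the swaps were turned in sign, which is called the turned reading. Values without that turn, which hold if the submitters had already turned them, are called the as-deposited reading, and both are given because the answer for these genes depends on the choice. Between 5077 and 10433 probes, 24 to 52 of them members, had a value on an array, and 10 member probes had one on all 12 arrays. On the 4 arrays of day 10, ratios also followed the place of the spot: medians of 48 consecutive runs of spots, taken as print blocks, had SDs of 0.22 to 0.37 within an array. As deposited, arrays of opposite dye orientation correlated over all probes at r = 0.38 to 0.48 on day 10, at 0.17 to 0.37 once block medians were removed and at 0.09 to 0.21 after a running median was. In the day-14 groups, as deposited, the same correlations ran from -0.04 to 0.33 in PTZ-ETH-NF_14 and from -0.23 to 0.28 in PTZ-NF-NF_14, so they did not point one way. No member passed the threshold in any comparison in the turned reading. In the as-deposited reading 14 of 48 member probes passed at day 10, a share no larger than that of all probes.

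**Figure D1:**
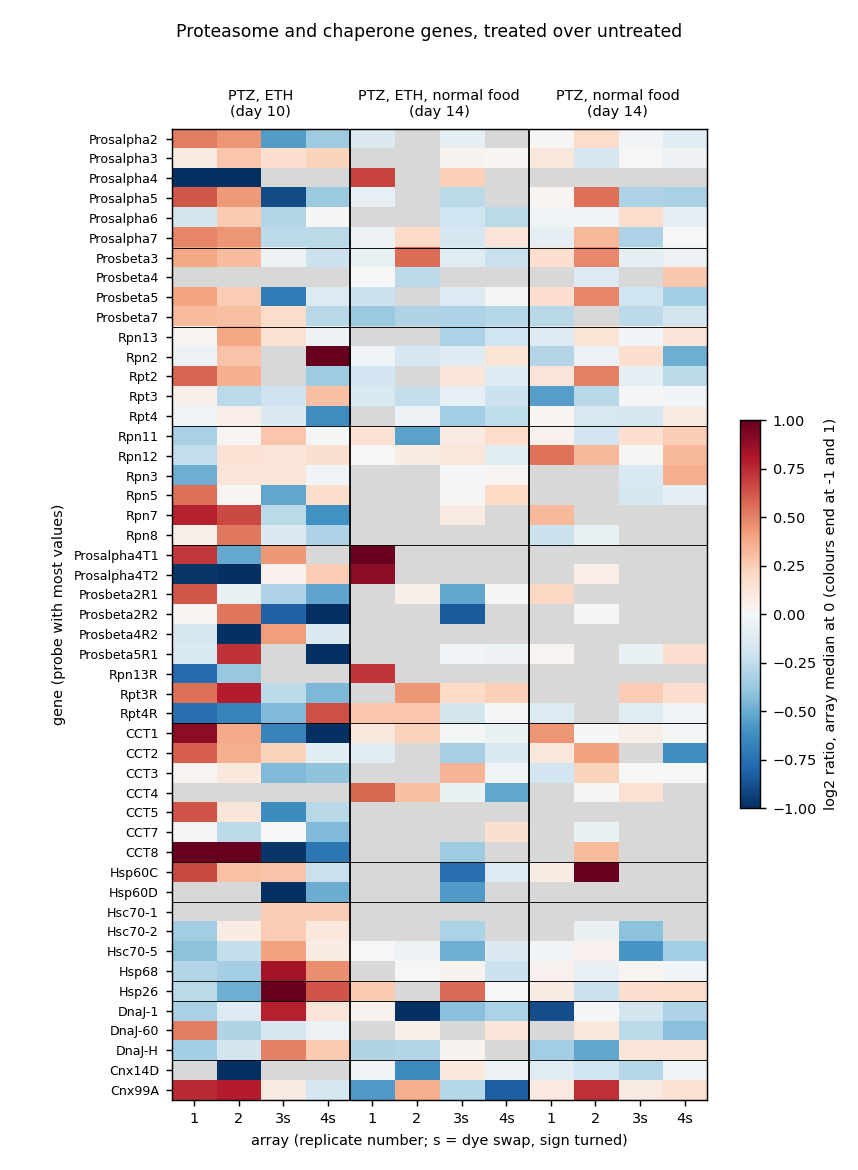
Log2 ratios of treated over untreated flies in the turned reading for the 49 genes (1 probe per gene, grey where no value) on the 12 arrays; columns are replicates 1 to 4 of each group, s marks a dye swap, and lines separate the gene classes. At day 10, many rows change colour between replicates 1 and 2 and the swaps, and grey fields are most common in the day-14 groups.

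The first comparison asked what the heads of flies on ETH after PTZ held at day 10, and proteasome genes were close to the array median there. A probe was tested if at least 3 of the 4 arrays had a value, which 29 proteasome probes of 27 genes did. In the turned reading 0 of them passed an adjusted p of 0.05, where 0.222% of all 9479 tested probes did, and 3 of the 27 genes had an unadjusted p under 0.05, where 8.34% of all probes did. The median over the 27 genes was 0.01, against 0.02 over all 5484 genes tested, with 14 genes above 0 and 13 below. In the as-deposited reading 9 of the 27 genes passed, 8 higher and 1 lower, where 30.5% of all probes passed, 18.7% higher and 11.8% lower. The median of the 27 genes was then 0.20, and the median over all genes in the as-deposited reading is not given here.

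In the 20S alpha ring the arrays of the 2 orientations opposed each other in the turned reading for 3 of the 5 tested subunits. Prosalpha2, a structural subunit of that ring, had ratios of 0.51 and 0.44 in replicates 1 and 2, and of -0.56 and -0.36 in the swaps. Prosalpha5 had 0.62 and 0.43 in replicates 1 and 2, and -0.90 and -0.37 in the swaps. Prosalpha7 had 0.48 and 0.44 in replicates 1 and 2, and -0.27 in both swaps. For all 3 subunits every array with treated RNA in Cy5 lay above 0 and every swap below it, so the group means were 0.01 ± 0.14, -0.05 ± 0.16 and 0.10 ± 0.13 (SE, 4 arrays, adjusted p = 0.989, 0.954 and 0.874). Their 95% intervals reached from -0.31 to 0.33 for Prosalpha2, from -0.40 to 0.29 for Prosalpha5 and from -0.19 to 0.37 for Prosalpha7. As deposited, the same arrays all lay above 0, and the 3 means were 0.47, 0.58 and 0.37 (adjusted p = 0.00837, 0.00929 and 0.0234).

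Prosalpha3 differed from them. Its ratios were 0.09, 0.28, 0.17 and 0.22 in replicates 1 to 4, above 0 on every array in the turned reading, with a mean of 0.19 ± 0.11 (SE, 4 arrays, adjusted p = 0.662). It was the only proteasome probe of 25 with 4 values to lie above 0 on all 4 arrays, where 5.36% of all probes with 4 values did. Once block medians were removed it no longer did, and Prosbeta5 and Rpt4R did instead, where 6.08% of all probes did. Prosalpha6 straddled 0 with ratios between -0.29 and 0.26. Prosalpha4 had a value on replicates 1 and 2 only, -1.08 and -1.19, and was not tested.

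In the beta ring, Prosbeta5 and Prosbeta3 were divided by orientation and Prosbeta7 was not. Prosbeta5, which carries the chymotrypsin-like cutting site, had 0.40 and 0.26 in replicates 1 and 2, and -0.70 and -0.14 in the swaps. Its mean was -0.05 in the turned reading and 0.37 as deposited (adjusted p = 0.957 and 0.031). Prosbeta3, a non-catalytic subunit, had 0.38 and 0.31, and -0.05 and -0.21 in the swaps, which gave 0.11 turned and 0.24 as deposited (adjusted p = 0.839 and 0.115). Prosbeta7, another non-catalytic subunit, was above 0 on 3 of 4 arrays in either reading, at 0.13 and 0.18. Prosbeta4 had too few values at day 10 to be tested. The medians of the classes by array are plotted as deposited, where the 5 tested alpha subunits had medians of 0.49, 0.43, 0.29 and 0.27 in replicates 1 to 4, and the 3 tested beta subunits 0.38, 0.30, 0.05 and 0.21. None of these 8 class medians was below 0, and neither were those of the 19S base, at 0.03, 0.29, 0.14 and 0.05. After removal of block medians, the swap medians were 0.02 and 0 for the alpha ring and -0.01 and 0.11 for the beta ring, and 3 of the 4 of the 19S base were below 0.

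**Figure D2:**
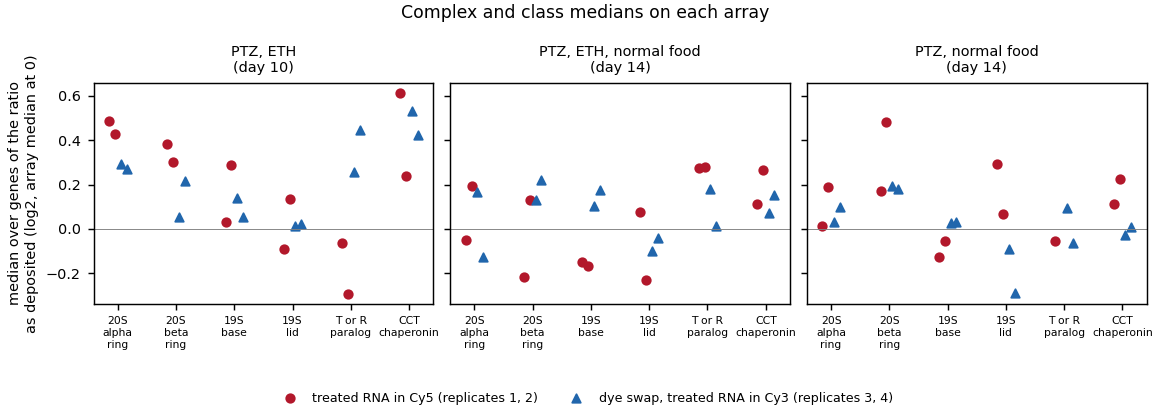
Median over the tested genes of 5 proteasome classes and of the CCT ring on each array, as log2 ratios in the as-deposited reading (y axis), for the 3 groups; red circles are replicates with treated RNA in Cy5 and blue triangles are dye swaps. At day 10 the 4 medians of the alpha ring, the beta ring, the 19S base and the CCT ring lie above 0 in both orientations, and turning the swaps would place the triangles below 0.

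In the 19S cap the base and the lid were both measured. Rpt2, a base ATPase that opens the core gate, had 0.58 and 0.36 in replicates 1 and 2 and -0.36 in replicate 4, with no value in replicate 3. Its fitted mean was 0.13 ± 0.17 (SE, 3 arrays) turned and 0.43 as deposited (adjusted p = 0.871 and 0.0328), and its plain turned mean was 0.20. Fitted and plain means differ where 1 array was missing, because a common dye term was subtracted. Rpt3 and Rpt4, also base ATPases, averaged -0.03 and -0.18 in the turned reading, and Rpn13, a ubiquitin receptor with 2 probes, 0.13 and 0.04. Rpn2, the scaffold of the base, had -0.06, 0.29 and 1.06 on 3 arrays. Its fitted mean of 0.48 ± 0.18 (adjusted p = 0.508) became -0.30 as deposited, so replicate 4, a swap, set its sign.

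Of the lid, Rpn7 stood highest as deposited. Its ratios were 0.77 and 0.66 in replicates 1 and 2, and -0.27 and -0.60 in the swaps, which gave 0.14 ± 0.13 turned and 0.58 ± 0.12 as deposited (SE, 4 arrays, adjusted p = 0.822 and 0.0153). The other lid subunits averaged between -0.07 and 0.06 in the turned reading: Rpn3, Rpn5, Rpn8, Rpn11, the deubiquitinase of the lid, and Rpn12. Rpn12 was at -0.25 in replicate 1 against 0.13 to 0.16 in the other 3 arrays. Of the 6 lid genes, Rpn7 alone passed the threshold as deposited.

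The T and R paralogs held the widest values of the proteasome set at day 10. Prosalpha4T2, a paralog of the alpha 4 subunit, had -0.97 and -1.63 in replicates 1 and 2, and 0.04 and 0.26 in the swaps. Its mean was -0.58 ± 0.16 turned (adjusted p = 0.429, 95% interval from -0.94 to -0.21) and -0.72 ± 0.15 as deposited (adjusted p = 0.0134). Its sign was thus the same in both readings, set before any position step by the 2 arrays with treated RNA in Cy5. Once block medians were removed, Prosalpha4T2 lay below 0 on all 4 arrays in the turned reading. It was then the 1 proteasome probe of 25 to do so, where 3.66% of all probes did. Prosbeta2R2, a paralog of a catalytic beta subunit, had 0.02 and 0.54, and -0.81 and -1.23 in the swaps, and gave -0.37 turned and 0.65 as deposited (adjusted p = 0.584 and 0.018). Rpt3R, a paralog of Rpt3, had 0.55 and 0.78, and -0.26 and -0.45 in the swaps, with means of 0.16 and 0.51 (adjusted p = 0.803 and 0.00921). Prosbeta2R1, Prosbeta4R2, Prosbeta5R1 and Prosalpha4T1 had fitted means of -0.07, -0.28, -0.26 and 0.27 in the turned reading, and 0 of them passed in either reading. The plain means of the last 2, with values on 3 arrays, were -0.15 and 0.21. The 2 probes of Rpt4R opposed each other at -0.30 and 0.27, and Rpn13R had values on 2 arrays only. Of 12 testis markers, 6 were on the array and 1 was tested at day 10, at -0.16 turned and 0.13 as deposited, so whether a testis source adds to these probes was not tested.

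Chaperone genes at day 10 followed the same division between readings. Of 19 probes tested, for 15 genes, 0 passed in the turned reading, and in the as-deposited reading 5 did, 2 higher and 3 lower, against the same 30.5% of all probes. The median over the 15 genes was 0.06 turned, against 0.02 over all genes in that reading. As deposited the 15 genes had a median of 0.11, and the median over all genes in the as-deposited reading is not given here. In the turned reading 1 of 15 genes had an unadjusted p under 0.05, where 8.34% of all probes did.

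The CCT ring gave the highest chaperone values as deposited. CCT8 had 1.02 and 1.21 in replicates 1 and 2, and -0.98 and -0.72 in the swaps. CCT1 had 0.90 and 0.38, and -0.67 and -1.18 in the swaps. Each gene lay more than 0.3 from 0 on every array, above it in one orientation and below it in the other. In the turned reading CCT8 averaged 0.13 ± 0.13 and CCT1 -0.14 ± 0.20 (SE, 4 arrays, adjusted p = 0.833 and 0.877). As deposited CCT8 averaged 0.98 ± 0.12 and CCT1 0.78 ± 0.13 (adjusted p = 0.00427 and 0.00351). CCT2, CCT3, CCT5 and CCT7 did not pass in either reading, with as-deposited means of 0.21, 0.24, 0.41 and 0.05. All 6 tested CCT genes were thus above 0 as deposited, with a median of 0.33, and in the turned reading 2 were above 0 and 4 below, with a median of -0.09. The share of all genes above 0 is not given here. CCT3 and CCT7 share a print block with day-10 medians of 0.43, 0.03, 0.60 and 0.39. As deposited, the array medians of the ring were 0.61, 0.24, 0.53 and 0.42, and 0.40, 0.10, 0.28 and 0.24 with block medians removed. CCT4 was not tested at day 10.

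Probes of 5 chaperone genes, Hsp26, Hsp68, DnaJ-H, Hsc70-5 and DnaJ-1, lay below 0 on all 4 arrays in the as-deposited reading, which is 5 of 18 probes with 4 values, where 17.9% of all such probes did. The first 3 passed the threshold. Hsp26, a small heat shock protein, had -0.27 and -0.49 in replicates 1 and 2, and 1.32 and 0.63 in the swaps. Hsp68, an inducible member of the Hsp70 family, had -0.29 and -0.34, and 0.83 and 0.46 in the swaps. Both were thus below 0 on the Cy5 arrays and above 0 on the swaps in the turned reading, which averaged to 0.30 ± 0.19 for Hsp26 and 0.17 ± 0.16 for Hsp68 (adjusted p = 0.715 and 0.81). As deposited the means were -0.68 ± 0.14 and -0.48 ± 0.11 (SE, 4 arrays, adjusted p = 0.00761 and 0.00941). DnaJ-H, a J-domain co-chaperone, had the same pattern with 0.06 turned and -0.32 as deposited (adjusted p = 0.906 and 0.0353). As deposited these 3 genes were lower in treated flies, and in the turned reading they had no shared sign over the arrays and did not pass. Which of the readings holds rests on the direction of the swaps, which no source used here states.

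Among the other Hsp70 and Hsp60 genes, Hsc70-5, the mitochondrial Hsp70, had 2 probes, at spots 14829 and 16243. They were at 0.06 and -0.04 in the turned reading and at 0.00 and -0.28 as deposited (adjusted p = 0.998 and 0.0615). Hsc70-2, a constitutive family member by name, was at 0.02 in the turned reading. Hsp60C, a mitochondrial-type chaperonin, had probes at 0.26 and -0.24. Hsc70-1 and Hsp60D had values on the 2 swaps only, 0.24 on both for Hsc70-1 and -1.34 and -0.50 for Hsp60D. DnaJ-60, a J-domain gene, averaged -0.00 in the turned reading.

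Cnx99A, the calnexin expressed widely in the fly, was measured by 2 probes that went apart. The probe whose first spot is number 25211 had -0.50, -0.13, -0.42 and -0.43 in replicates 1 to 4, below 0 on all 4 arrays in the turned reading, with a mean of -0.37 ± 0.11 (SE, adjusted p = 0.376, 95% interval from -0.60 to -0.13). That was the lowest adjusted p of any member at day 10 in this reading, and the only chaperone probe of 18 below 0 on all 4 arrays, where 3.34% of all probes were. After block medians were removed, 0 chaperone probes lay below 0 on all 4 arrays, where 3.66% of all probes did, and 1 probe of Cnx99A lay above 0 on all 4, where 6.08% did. The probe at spot 5851 had 0.75, 0.79, 0.09 and -0.18, with a mean of 0.36 ± 0.16 (adjusted p = 0.582). The gene's direction at day 10 therefore depended on which probe was read. Cnx14D, a second calnexin, had a value on 1 array.

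**Figure D3:**
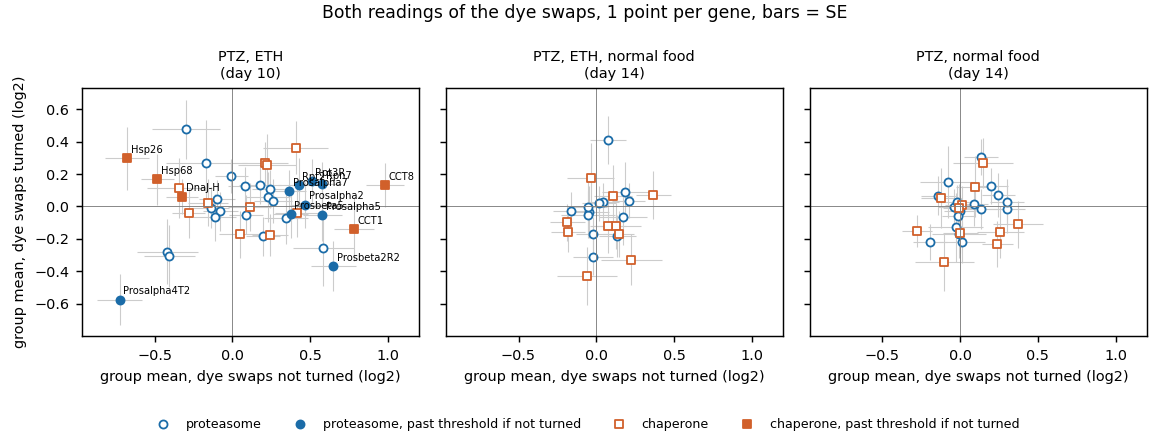
Group means of the member genes (log2 treated over untreated, bars are SE) with the dye swaps turned (y axis) against not turned (x axis); circles are proteasome genes, squares chaperone genes, and filled symbols passed an adjusted p of 0.05 in the as-deposited reading. In the day-10 panel the 14 filled genes spread from -0.72 to 0.98 along the x axis and most of them lie within 0.3 of 0 on the y axis; at day 14 no plotted gene is filled.

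Place on the slide moved with part of the as-deposited values. Prosalpha2, Prosalpha7 and Prosbeta3 lie in the same print block, whose median on the day-10 arrays was 0.18, 0.25, 0.25 and 0.11. With block medians removed, 5 members still passed as deposited: Rpt2 (0.39, adjusted p = 0.0436), Rpt3R (0.62, 0.00791) and CCT8 (0.73, 0.0117) were higher, and Hsp68 (-0.46, 0.0273) and Hsp26 (-0.45, 0.0435) were lower, where 16.6% of all probes passed. Prosalpha2 was then at 0.27 and CCT1 at 0.32 (adjusted p = 0.0519 and 0.087), and Prosbeta5 at -0.02 (adjusted p = 0.92). The median over the 27 proteasome genes was 0.02 after that step, and over the 15 chaperone genes 0.00. A running median over neighbouring spots left 3 members past the threshold, all higher: Rpt3R at 0.70, CCT1 at 0.85 and Prosbeta2R1 at 0.64 (adjusted p = 0.00747, 0.0102 and 0.0453). The share of all probes that passed after the running median is not given here, so that count has no background to be read against. Rpt3R was the only member past the threshold in the as-deposited reading under all 3 of these treatments of position.

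The second comparison asked what remained 4 days after ETH, at day 14, and proteasome genes were again near the array median. Of the 34 proteasome probes 13 were tested, each of its own gene, and 0 passed in the turned reading, where 0% of 5135 probes did. At an unadjusted p of 0.05 the count was 2 of 13 genes, where 4.4% of all probes passed. The median was -0.03, against -0.00 over all genes tested, and the means ran from -0.32 to 0.41. In the as-deposited reading 0 passed, where 0.331% of all probes did. The untested genes were 17 and included 5 of the 6 alpha subunits (Prosalpha2 to Prosalpha6) and the lid subunits Rpn3, Rpn5, Rpn7 and Rpn8.

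Prosbeta7 varied little between the arrays of that group. Its ratios were -0.37, -0.30, -0.31 and -0.28 in replicates 1 to 4, below 0 on all 4 arrays in the turned reading and within 0.1 of each other. Its mean was -0.32 ± 0.11 (SE, 4 arrays, adjusted p = 0.998), and -0.02 as deposited. Rpt3 was also below 0 on all 4 arrays, at -0.15, -0.24, -0.08 and -0.22, with a mean of -0.17. These were 2 of 8 proteasome probes with 4 values, where 6.15% of all probes with 4 values lay below 0 on every array. Rpt3R had 0.43, 0.20 and 0.24 on 3 arrays, and a fitted mean of 0.41 ± 0.15 (adjusted p = 0.998), the highest of the set. The fitted value lies above 2 of the 3 ratios because the common dye term was subtracted where 1 array was missing. Prosalpha7 and Prosbeta3 averaged 0.03 each, and Rpn11 was -0.03 with replicate 2 at -0.53 against 0.08 to 0.19 on the other arrays.

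Chaperone genes at that time had a median of -0.12 over 10 genes in the turned reading and 0.09 as deposited, so the sign of the median followed the reading. None of the 14 chaperone probes passed in either, and 1 of the 10 genes had an unadjusted p under 0.05 in the turned reading, where 4.4% of all probes did. Cnx99A was at -0.33 ± 0.16 and -0.14 ± 0.10 on its 2 probes, and Cnx14D at -0.16 ± 0.12 (SE, 4 arrays, adjusted p = 0.998 each). Hsc70-5 had 0.00, -0.05, -0.49 and -0.14, with a mean of -0.17. CCT4 had 0.57 and 0.30 in replicates 1 and 2, and -0.07 and -0.52 in the swaps, with a mean of 0.07 turned and 0.37 as deposited (adjusted p = 0.998 and 0.173). Hsp26 had 0.26, 0.56 and 0.00 on 3 arrays in the turned reading and a fitted mean of 0.17, and Hsp68 had -0.00, 0.03 and -0.21 and a fitted mean of -0.12, against plain means of 0.28 and -0.06. Fitted and plain means differ here as for Rpt3R, with 1 array missing. CCT1 and CCT2 were at 0.06 and -0.12, and CCT8, CCT5 and CCT7 were not tested at day 14.

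The third comparison set flies given PTZ and then 7 days of normal food against untreated flies at day 14. Of 19 proteasome probes for 17 genes, 0 passed in either reading, where 0% of 6386 probes passed turned and 0.204% as deposited. The median over the 17 genes was -0.00 in both readings, against -0.01 over all genes tested in the turned one. In the turned reading 1 of 17 genes had an unadjusted p under 0.05, where 6.69% of all probes did.

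Rpn12, a lid subunit, was that gene. It had 0.54, 0.33, 0.01 and 0.33 in replicates 1 to 4, above 0 on all 4 arrays, with a mean of 0.30 ± 0.11 (SE, adjusted p = 0.696, 95% interval from 0.07 to 0.54). It was lower as deposited, at 0.13. Rpn13, at its probe with first spot 13867, was above 0 on all 4 arrays too, between 0.07 and 0.29, and its other probe straddled 0. Rpt3 was below 0 on all 4 arrays, at -0.55, -0.28, -0.02 and -0.03, with a mean of -0.22 ± 0.11 (adjusted p = 0.77). Those above 0 were 2 of 15 probes with 4 values, where 11.2% of all such probes were, and Rpt3 was the 1 below 0, where 11.5% were. Without block medians, Rpn12 and Rpt3 kept their sign on all 4 arrays and Rpn13 did not. Prosbeta7 had -0.27, -0.26 and -0.18 on 3 arrays and a fitted mean of -0.22 (adjusted p = 0.811). Rpt3 and Prosbeta7 thus lay below 0 on every array with a value in both day-14 groups in the turned reading, and neither passed the threshold.

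Some 20S subunits were again divided by orientation, Prosalpha2, Prosalpha5, Prosbeta3 and Prosbeta5, and Prosalpha3, Prosalpha6, Prosalpha7 and Prosbeta7 were not. Prosalpha5 had 0.02 and 0.55 in replicates 1 and 2, and -0.31 and -0.32 in the swaps, with means of -0.02 turned and 0.30 as deposited (adjusted p = 0.985 and 0.388). Prosbeta5 had 0.17 and 0.49, and -0.20 and -0.35 in the swaps, with means of 0.03 and 0.30 (adjusted p = 0.98 and 0.323). As deposited, 5 of 15 proteasome probes with 4 values (Prosalpha2, Prosalpha5, Prosbeta3, Prosbeta5 and Rpt2) lay above 0 on all 4 arrays, where 9.96% of all such probes did, and 0 lay below 0 on all 4. At day 10 those above 0 on all 4 arrays as deposited were 9 of 25, where 25.4% of all such probes were. Over the 13 probes with 4 values in both groups, Prosalpha2, Prosalpha5, Prosbeta3 and Prosbeta5 were above 0 on all 8 arrays as deposited, which is 4 of the 5 such probes at day 10 and 4 of the 4 at day 14. Of 9 chaperone probes with 4 values in both, 0 were above 0 on all 8 arrays and 1, of DnaJ-H, was below. The share of all probes with 1 sign on all 8 arrays was not counted, so these overlaps have no background to be read against. The 2 sets of arrays come from different treated and untreated flies, harvested on different days, and share the dyes and the place of each spot. With block medians removed, Prosbeta3, Prosbeta5 and Rpt2 were above 0 on all 4 arrays of PTZ-NF-NF_14 as deposited, where 8.29% of all probes were. Neither Prosbeta3 nor Prosbeta5 was so at day 10. Rpt2 had values on 3 arrays at day 10 and could not be counted there, and its mean was then 0.39 (adjusted p = 0.0436).

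Of 16 chaperone probes for 11 genes, 0 passed in the turned reading, with 0 genes at an unadjusted p under 0.05 either, and 1 probe, of DnaJ-1, passed as deposited, where 0.204% of all probes did. The median over the 11 genes was -0.11 turned and 0.01 as deposited. In the turned reading, with 1 probe per gene, the highest means were those of Cnx99A at spot 5851 (0.27 ± 0.16) and of CCT1 (0.12 ± 0.19). The lowest was that of DnaJ-1 at spot 27257 (-0.35 ± 0.18), and the adjusted p were 0.811, 0.915 and 0.773 in that order. Other probes of DnaJ-1 lay above CCT1, with means of 0.21 at spot 4875, 0.15 at spot 6031 and 0.14 at spot 6351. Cnx99A at spot 5851 had 0.09, 0.73, 0.09 and 0.15, above 0 on all 4 arrays, with replicate 2 apart from the rest. Its other probe, at -0.17, was below 0 on 3 of 4 arrays. Cnx14D was below 0 on all 4, at -0.12, -0.20, -0.29 and -0.04, as was DnaJ-1 at spot 27257, between -0.884 and -0.012. Of 13 chaperone probes with 4 values, 1 was thus above 0 on all 4 arrays, where 11.2% of all such probes were. The 2 below 0 compare with 11.5% of all such probes. None of these probes kept 1 sign on all 4 arrays once block medians were removed. Hsp26 and Hsp68 averaged 0.05 ± 0.18 and -0.01 ± 0.15, and CCT3 0.01 ± 0.12. Hsp68 stayed between -0.08 and 0.05 on the 4 arrays, so it was near 0 here in both readings.

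DnaJ-1, the main Hsp40 co-chaperone of cytosolic Hsp70, is on the array as 8 probes, and they did not give 1 answer. The probe at spot 6031 in PTZ-NF-NF_14 had 0.62 and 1.30 in replicates 1 and 2, and -0.84 and -0.47 in the swaps, with means of 0.15 turned and 0.81 as deposited (adjusted p = 0.858 and 0.0454). The probe at spot 6351 in PTZ-ETH-NF_14 had -0.51 and -0.43, and 0.58 and 0.51 in the swaps, with means of 0.04 turned and -0.51 as deposited (adjusted p = 0.998 and 0.0565). Each of these probes kept 1 sign on all 4 arrays as deposited, and the 2 signs were opposite. Of all such probes 9.96% lay above 0 on all 4 arrays in PTZ-NF-NF_14, and 13.1% below in PTZ-ETH-NF_14. As deposited in PTZ-NF-NF_14, spot 4875 had 0.423, 0.831, 0.351 and 0.053, and spot 8895 had 0.268, 1.092 and 0.345 on 3 arrays. At spots 6351, 8719, 15815 and 27257 the mean or single value of that group was below 0. In PTZ-ETH-NF_14 the probe at spot 6031 had an as-deposited mean of 0.62 (adjusted p = 0.131), and in PTZ-NF-NF_14 the probe at spot 6351 had -0.22 (adjusted p = 0.492), so each had the same sign in both day-14 groups. With block medians removed the second probe passed in PTZ-ETH-NF_14 as deposited, at -0.49 (adjusted p = 0.0355), where 0.565% of all probes passed. The probe at spot 27257 was at 0.11, -0.43 and -0.35 in PTZ-ETH_10, PTZ-ETH-NF_14 and PTZ-NF-NF_14 in the turned reading, and at -0.34, -0.06 and -0.10 as deposited. At spot 15815 the swaps of PTZ-NF-NF_14 had 1.32 and 1.56 in the turned reading with no value in Cy5 orientation. At day 10 this probe had a fitted mean of -0.31 over 3 arrays, against a plain mean of -0.17. One probe of the gene had no value on any array.

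**Figure D4:**
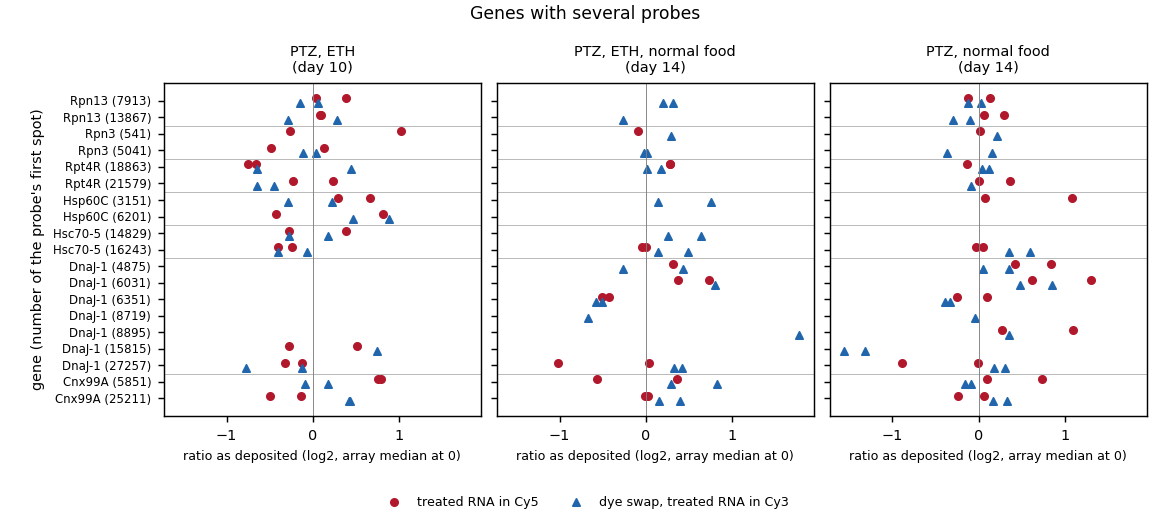
Log2 ratios in the as-deposited reading (x axis) for 7 member genes with more than 1 probe, each probe named by the number of its first spot, in the 3 groups; red circles have treated RNA in Cy5 and blue triangles are dye swaps. The DnaJ-1 probes at spots 6031 and 6351 lie on opposite sides of 0 on all 4 arrays at day 14 in 1 group each, and those of Cnx99A part at day 10.

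The groups were also compared with each other. Between the 2 arms at day 14, PTZ-ETH-NF_14 minus PTZ-NF-NF_14, 0 of 24 member probes passed in either reading, where 0% of 4766 probes did. At an unadjusted p of 0.05, 1 member passed in the turned reading, where 1.64% of all probes did. The largest difference was that of Cnx99A at spot 5851, at -0.60 ± 0.22 in the turned reading (SE, unadjusted p = 0.015, adjusted p = 1), and its other probe differed by 0.03. Medians of the differences were -0.07 over 11 proteasome genes and -0.01 over 9 chaperone genes, against 0.02 over all genes tested.

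Within the ETH arm, comparing day 14 with day 10, PTZ-ETH-NF_14 minus PTZ-ETH_10, 0 members passed in the turned reading, where 0.0449% of all 4451 probes did, and 4 of 22 had an unadjusted p under 0.05, where 5.77% of all probes did. Those 4 were Cnx99A at spot 5851 (-0.69 ± 0.22), DnaJ-1 at spot 27257 (-0.54 ± 0.25), Rpn2 (-0.53 ± 0.23) and Prosbeta7 (-0.44 ± 0.16). Their adjusted p were 0.512, 0.833, 0.807 and 0.657 (± is SE). The other probe of Cnx99A, at spot 25211, differed in the opposite direction, by 0.23 ± 0.15. As deposited CCT1 was lower at day 14 than at day 10 by a difference of -0.67 ± 0.17 and Hsp68 was higher by 0.56 ± 0.16 (adjusted p = 0.0258 and 0.0395), where 9.66% of all probes passed. With block medians removed, Rpt3R passed in their place at -0.67 (adjusted p = 0.0187), where 8.22% of all probes did.

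Genes that work with these sets were counted as well. Of 49 listed partners of the proteasome (assembly factors, ubiquitin genes, deubiquitinases, the COP9 signalosome and the Keap1 pathway), 20 were tested at day 10, 15 in PTZ-ETH-NF_14 and 13 in PTZ-NF-NF_14, and of 56 listed partners of chaperones 30, 21 and 23. In the turned reading 0 passed in any group. As deposited at day 10, 5 proteasome partners were higher and 2 lower of 20, where 18.7% of all probes were higher and 11.8% lower. Among them were PI31, a regulator of the 20S core (0.68, adjusted p = 0.00969), REG, an activator of that core (0.51, 0.0129), and Cul2, a ubiquitin ligase scaffold (-0.54, 0.0213). Of the 30 chaperone partners 4 were higher and 3 lower, against the same shares, among them Trap1, the mitochondrial Hsp90 (0.63, 0.00731), and Pfdn5 and Pfdn6, subunits of the prefoldin that hands actin and tubulin to the CCT ring (0.60 and -0.66, adjusted p = 0.00941 and 0.00375). With block medians removed, where 16.6% of all probes passed, 2 proteasome partners were lower, CSN3 and maf-S, neither of them among the 7 before, and 0 were higher, so PI31, REG and Cul2 no longer passed. Of the chaperone partners Pfdn5 alone then passed.

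Markers of head cell types were read at day 10 as well. Lists for neurons, haemocytes, and cuticle and epidermis had also been set, and their values are not given here. Whether low values were particular to glia therefore cannot be read from the lists below. Of 9 listed glial markers 6 were tested and all 6 were below 0, with a median of -0.37 in the turned reading and -0.40 as deposited, and array medians between -0.86 and 0.12 turned. The share of all genes below 0 and the glial median with block medians removed are not given here. The part of the glial markers in the member values was not tested. As deposited 3 of the 6 passed, all lower (Gat, moody and nrv2), and 1, moody, with block medians removed. Among all probes, for this and the next marker lists, 18.7% passed as higher and 11.8% as lower as deposited. With block medians removed, 16.6% of all probes passed in either direction. Muscle markers had a median of -0.13 over 4 genes turned and -0.25 as deposited, where 1 was higher and 1 lower. Photoreceptor markers had 0.07 over 5 genes turned and 0.19 as deposited, where inaC and Arr2 passed as higher. Fat body markers had -0.01 over 6 genes turned and 0.31 as deposited, where apolpp, Yp2 and Fbp2 passed as higher. No marker passed in the turned reading.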

How the data were processed

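RNA from fly heads was measured on 12 two-colour arrays; groups and dyes follow the labels. The authors measured spots with GenePix Pro 6.0 and used Acuity 4.0 for a ratio normalization, per the design text. The deposited values are log2 ratios, a scale taken from the values since no source used here names it. From these, 5 spot values at the software ceiling were set to missing, pairs of adjacent spots were averaged to 13824 probes, swaps were turned in sign, and arrays were centred on their median. Deposited array medians, whose centring stays unknown, ran from -0.62 to 0.03 log2, and centring moved all turned ratios of the groups by an average of 0.15 (PTZ-ETH_10), -0.10 (PTZ-ETH-NF_14) and -0.06 (PTZ-NF-NF_14) log2.

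A linear model with 3 group means and 1 dye term per probe was fitted jointly to the 12 arrays in R 4.3.3 (limma 3.58.1, lmFit and eBayes). Tests were two-sided, Benjamini-Hochberg adjusted over all probes tested in a comparison, with a threshold of 0.05. List medians use 1 probe per gene, that with most values. Precision is limited by the number of arrays. Duplicate arrays were not found: at most 0.289% of spot values were identical in any of 66 pairs. The script was tested on simulated data.

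Gene names come from the platform annotation matched by gene ID to current symbols; 7447 of 7558 single-gene probes matched, and 51 probes with several genes were not named. Members such as Hsp83, Hsc70-3 and Hsc70-4 had no single-gene probe in the annotation used and are not analysed here. Sequences were not analysed here. The members, classes and partner lists were chosen with earlier results of these data known. Named with values were members past the threshold in either reading, up to 5 per list, group and direction with the smallest p, a fixed set of heat shock, CCT, DnaJ and calnexin genes, the T and R paralogs, and up to 3 partners per direction. Other members were named after their values were seen. Alternatives covered swap direction, centring, slide position, array scale, the dye term, weights, the arrays required, averaged probes, a replicate block and each array left out.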

Additional observations from a re-analysis of the deposited data

Results flagged for a closer look

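Of 69 gene values with 4 arrays in a group, 4 held 1 array far from the other 3; chance marks about 1 in 20. Rpn12 in PTZ-ETH_10 had -0.248 in replicate 1, against 0.126 to 0.162 on the other arrays. Rpn11 in PTZ-ETH-NF_14 had -0.533 in replicate 2, against 0.0835 to 0.187. CCT1 in PTZ-NF-NF_14 had 0.442 in replicate 1, against -0.0095 to 0.0615. Cnx99A, at its probe with first spot 5851, had 0.733 in replicate 2 of PTZ-NF-NF_14, against 0.088 to 0.154. All are log2 ratios of treated over untreated flies in the turned reading, and no explanation was tested.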

How the results depend on the processing

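With swaps turned, 0 members passed the threshold in each of the 5 comparisons under the alternatives run, and 0 passed with any 1 array left out (range 0 to 0). Counts moved when the swaps were not turned. At day 10, 14 member probes then passed, 5 with print-block medians removed as well, 8 with that group's arrays fitted alone and 3 with a local running median removed. In PTZ-ETH-NF_14, 1 passed with print-block medians removed and 1 with the running median removed. In PTZ-NF-NF_14, 1 passed as deposited, 1 with print-block medians removed, 1 with the running median removed and 5 with its arrays alone. For day 14 minus day 10 in the ETH arm, 2 passed as deposited, 1 after print-block and 2 after running-median removal. The running median and these combinations were chosen after seeing the data. Of all probes, 30.5% passed as deposited and 16.6% with print-block medians removed at day 10. The same shares were 0.204% and 0.345% in PTZ-NF-NF_14, and 9.66% and 8.22% for day 14 minus day 10. In PTZ-ETH-NF_14, 0.565% passed with print-block medians removed. For the running median and for arrays fitted alone the share is not given here, so those counts have no background to be read against.

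Some means passed the threshold as deposited with the sign opposite to the turned mean. At day 10 they were Prosalpha5 0.58, Prosbeta5 0.37, Prosbeta2R2 0.65, CCT1 0.78, Hsp68 -0.48, Hsp26 -0.68 and DnaJ-H -0.32. With that group's arrays alone they were Prosalpha5 0.58, Prosbeta2R2 0.65, CCT1 0.78 and Hsp26 -0.68. With print-block medians removed they were Hsp68 -0.46 and Hsp26 -0.45, and with the running median removed Prosbeta2R1 0.64 and CCT1 0.85. In PTZ-NF-NF_14, CCT2 was such a case at 0.44 with its arrays alone. The cause was not tested.

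Without centring, the chaperone median was 0.214 in PTZ-ETH_10, -0.242 in PTZ-ETH-NF_14 and -0.174 in PTZ-NF-NF_14, and the proteasome median was -0.107 in PTZ-ETH-NF_14. The chaperone median of PTZ-ETH-NF_14 was 0.0922 with swaps not turned, then 0.120 with print-block medians removed, 0.0551 with its arrays alone and 0.0956 with the running median removed. That of PTZ-NF-NF_14, -0.111 as reported, was 0.00938 with swaps not turned, and then 0.0525, 0.00938 and 0.0699 under the same 3 steps. With swaps turned it was 0.00725 on Cy5 arrays only, -0.0863 with print-block medians removed and -0.0224 with the running median removed. It was -0.0338 when the dye term was dropped, -0.152 under array weighting, -0.0597 with 2 arrays required, -0.00788 with 4 required and -0.0075 with a gene's probes averaged. With 1 array left out in turn, the proteasome medians ran from -0.0148 to 0.0640 in PTZ-ETH_10, -0.0682 to -0.000336 in PTZ-ETH-NF_14 and -0.00494 to 0.0716 in PTZ-NF-NF_14. The chaperone medians ran from -0.00624 to 0.160, -0.164 to -0.0622 and -0.134 to -0.0416 in the same order of groups.

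Replicate numbers are shared by the groups, but deviations of same-numbered arrays from their group means correlated at r from -0.077 to 0.25, so the numbers were not taken to pair arrays. With the replicate block in place of the dye term, 0 members passed in each comparison, and the chaperone median of PTZ-NF-NF_14 was -0.023.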
